A study of Mus musculus with 6 samples.

Results

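The nuclear receptors are a family of transcription factors, described here in LSK cells of mouse bone marrow. LSK cells lack the markers of mature lineages and are positive for Sca-1 and Kit, a gate that holds blood stem cells and early progenitors. The family was set as a list of 45 gene names, from which Pparg was left out. Each gene was read from its probe with 1 gene symbol and the highest mean over the 6 arrays, which gave a value for 43 of the 45 among 22180 genes. Nr1h2 and Nr2e3 were not analysed here.

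The samples were 3 of YFP-positive and 3 of YFP-negative LSK cells, all from C57Bl6 mice that carried Tg(Cdh5-Cre/ERT2) and a Rosa 26 YFP reporter. Cre/ERT2 is a recombinase joined to a ligand-binding part of the estrogen receptor, itself a nuclear receptor, and Cdh5 is the gene of the endothelial junction protein VE-cadherin. Tamoxifen, a ligand of that receptor, was given on days 1, 2 and 3 after birth to the mice of both groups, and marrow was taken on postnatal day 27, or 26 days from the start of dosing. A cell is YFP-positive if Cre was active in it or in a cell it came from, so the mark does not show that Cdh5 was on at the time of the sort. The labels do not say whether replicates came from separate mice or from pools, so every p-value rests on the spread among these 6 samples and that spread may be technical. Values are the deposited log2 levels, and a difference is always YFP-positive minus YFP-negative on that scale.

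Nuclear receptors bind DNA and recruit coactivators or corepressors, and in many of them a small fat-soluble ligand decides which. Retinoic acid, thyroid hormone, steroid hormones, vitamin D, oxysterols and fatty acids act in this way. Others, called orphan receptors, work without a known hormone and are controlled mainly by their own abundance. Rxr proteins are the shared partners of many of these receptors. In blood cells, retinoic acid receptors influence stem cell self-renewal and myeloid maturation, and Nr4a receptors restrain the growth of stem cells. In vessels, Nr2f2 is known for setting venous identity.

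The labels were first checked against marker genes. Cdh5, which drives the Cre, measured 11.63, 11.84 and 11.29 in YFP-positive replicates 1, 2 and 3 and 5.40, 4.55 and 3.71 in the YFP-negative ones. The marker lists were chosen with earlier results of these data known, so they are not an independent check. All 16 endothelial markers on the list were higher past limma's threshold. Their mean level was 8.89 to 9.60 in YFP-positive and 4.51 to 5.17 in YFP-negative arrays. None of the 16 lay below the array median on all 6 arrays. Of 10 measured stem and progenitor markers, 7 were lower in YFP-positive cells, with mean levels of 6.18 to 6.66 against 7.90 to 8.06. Leukocyte markers averaged 5.89, 6.34 and 8.29 in YFP-positive replicates 1, 2 and 3 and 8.55 to 8.73 in the YFP-negative arrays, so YFP-positive replicate 3 stood near the YFP-negative arrays there. All 12 leukocyte markers had differences below 0, with a median of -1.80, and 2 were called lower. Neutrophil markers averaged 8.15, 8.51 and 9.77 in YFP-positive and 7.07, 7.51 and 9.49 in YFP-negative replicates 1, 2 and 3, with 0 of 12 called and replicate 3 highest in both groups. Their median difference was 0.85, with 10 genes above 0 and 2 below. The means of 3 other marker lists did not overlap between the groups. Macrophage markers averaged 4.56 to 4.71 against 3.80 to 4.11 (2 of 12 called higher). Their median difference was 0.01, with 6 genes above 0 and 6 below, and the 2 called were Vcam1 (6.07) and Mertk (1.74). Mesenchymal markers averaged 3.72 to 4.35 against 3.57 to 3.64 (0 of 9 called). Their median difference was 0.09, with 6 above 0 and 3 below, and Lepr and Cxcl12 had the largest (1.87 and 1.82). B lymphoid markers averaged 3.36 to 3.51 against 3.71 to 3.99 (1 of 6 called lower, Cd79b), with a median difference of -0.20. Fewer cells of a type and less RNA per cell cannot be told apart in these samples. The part of other cell types in the results below was not tested.

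Of the 43 nuclear receptors, 3 were higher and 1 was lower in YFP-positive cells at a limma adjusted p under 0.05. Nr2f2, Nr1d1 and Nr5a2 were between 6.20-fold and 9.26-fold higher, and Hnf4a was 1.76-fold lower. The 4 called genes are 9.30% of the family, where 4.84% of all genes were called. In the 2 directions, 2.88% of all genes were higher and 1.96% lower, against 6.98% and 2.33% of the family. Counting only genes above the array median on all 6 arrays, 3 of 25 receptors were called, against 7.95% of 10671 genes. These shares rest on 4 genes and are not a result about the family as a whole. Without YFP-positive replicate 1 or YFP-negative replicate 2, 1 receptor was called higher, and without YFP-negative replicate 1, 0 were. Omitting any array left 0 called lower. The unmoderated model, which estimates the spread gene by gene, called 0 receptors in either direction. Of the 4, Hnf4a was also lost with trend and robust eBayes and with adjustment over all probes (adjusted p = 0.0736 and 0.0673). With the replicate number as a block, only Nr1d1 stayed called. Nr2f2, Nr5a2 and Hnf4a then had limma adjusted p = 0.0598, 0.0522 and 0.0960, although no label pairs the samples by number. An unadjusted p below 0.05 was found for 9 receptors (20.9%), against 17.2% of all genes. The median difference was 0.05 over the receptors and -0.01 over all genes. In 30 of the 43 receptors the whole 95% interval fell inside -1 to 1, and 72.7% of all genes did the same.

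**Figure D1:**
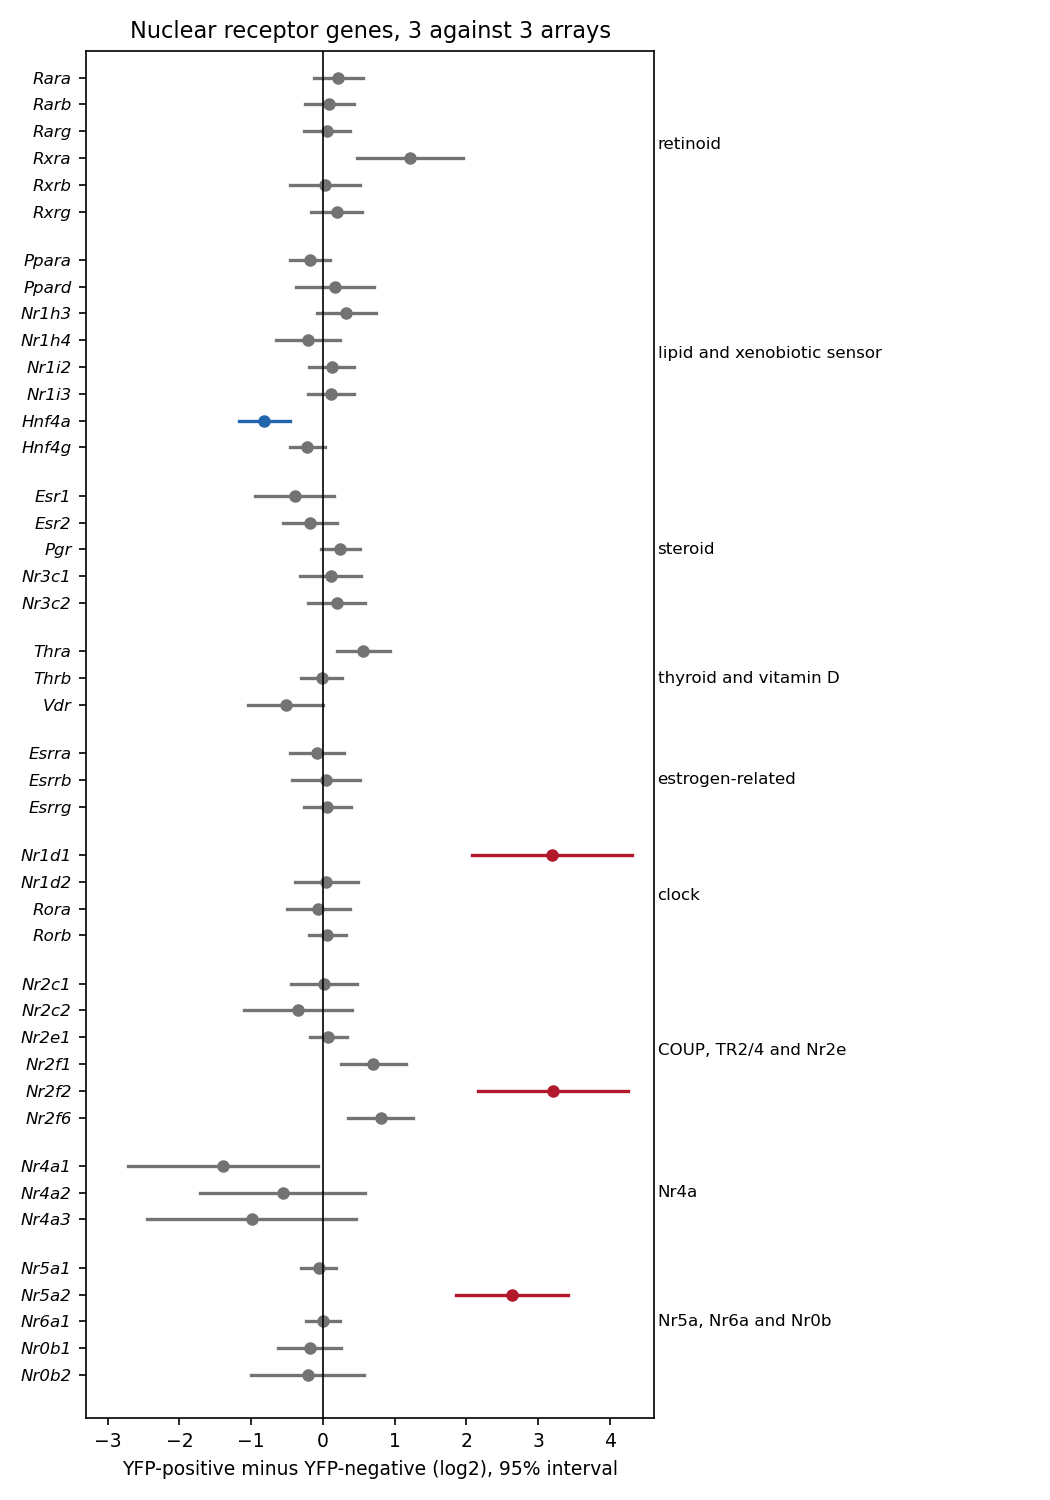
Difference between YFP-positive and YFP-negative cells on the log2 scale (x axis) for each of 43 nuclear receptor genes (y axis, grouped by kind), as points with 95% intervals from limma over 3 against 3 arrays. Red marks the 3 genes called higher, blue the 1 called lower and grey the 39 not called. Nr1d1, Nr2f2 and Nr5a2 lie beyond 2.6, and most others lie near 0.

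The 4 called genes lie on different chromosomes. The 250 bases before a RefSeq start of each are printed so that the sequences ahead of receptors that moved can be set beside each other. They come from RefSeq on build GRCm38.p6, which may not be the build of the array's design. The Nr2f2 window is chr7:70366747-70366996 on the minus strand, the Nr1d1 window chr11:98775378-98775627 on the minus strand, the Nr5a2 window chr1:136960449-136960698 on the minus strand and the Hnf4a window chr2:163506607-163506856 on the plus strand. RefSeq lists 1 further start each for Nr5a2 and Hnf4a, and the array does not show which start was used. Capitals mark matches on either strand to AGGTCA, the hexamer that many nuclear receptors bind, to the E-box CACGTG, to AGGAAG, which holds the core of ETS factor sites, and to AGATAA, which blood and endothelial factors of the Gata family bind.
Nr2f2 promoter window: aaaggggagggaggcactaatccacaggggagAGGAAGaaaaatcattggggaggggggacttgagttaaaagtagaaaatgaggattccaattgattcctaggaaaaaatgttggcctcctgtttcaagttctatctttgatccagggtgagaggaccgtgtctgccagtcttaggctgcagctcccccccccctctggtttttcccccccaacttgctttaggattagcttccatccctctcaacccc
Nr1d1 promoter window: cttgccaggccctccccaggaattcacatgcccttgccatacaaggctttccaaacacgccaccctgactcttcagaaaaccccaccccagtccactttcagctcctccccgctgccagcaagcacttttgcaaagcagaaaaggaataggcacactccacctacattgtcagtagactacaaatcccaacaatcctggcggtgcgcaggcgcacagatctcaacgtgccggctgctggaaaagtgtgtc
Nr5a2 promoter window: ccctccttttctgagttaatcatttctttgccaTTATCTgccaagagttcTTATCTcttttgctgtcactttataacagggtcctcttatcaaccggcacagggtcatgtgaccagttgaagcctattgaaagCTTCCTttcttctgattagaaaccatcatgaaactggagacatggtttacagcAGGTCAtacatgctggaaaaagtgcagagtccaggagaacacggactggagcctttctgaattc
Hnf4a promoter window: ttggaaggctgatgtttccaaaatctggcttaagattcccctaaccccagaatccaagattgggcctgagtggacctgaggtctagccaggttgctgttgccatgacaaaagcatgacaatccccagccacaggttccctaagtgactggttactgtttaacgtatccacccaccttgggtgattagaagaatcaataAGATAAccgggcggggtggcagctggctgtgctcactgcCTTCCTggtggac

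The Nr5a2 window held 1 match to AGGTCA, 1 to AGGAAG and 2 to AGATAA. The Nr2f2 window held 1 match to AGGAAG, the Hnf4a window 1 to AGGAAG and 1 to AGATAA, and the Nr1d1 window none of the 4 motifs. At the further start of Nr5a2 (chr1:136953631-136953880) there was 1 match, to AGGAAG, and at that of Hnf4a (chr2:163546905-163547154) there were 0. Over 32851 RefSeq windows of the same 250 bases, 14.0% held AGGTCA, 6.02% CACGTG, 29.5% AGGAAG and 9.99% AGATAA. Over the 58 windows of the 39 receptors that matched the table, the shares were 15.5%, 8.62%, 27.6% and 8.62%. A match is only a run of letters and not a shown binding site.

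The COUP transcription factors Nr2f1, Nr2f2 and Nr2f6 are orphan receptors, and all 3 measured higher in YFP-positive cells with no overlap between the groups. Nr2f2 measured 8.32, 8.98 and 7.31 in YFP-positive replicates 1, 2 and 3 and 4.89, 4.72 and 5.36 in the YFP-negative ones. All YFP-positive arrays were higher, and YFP-positive replicate 3 and YFP-negative replicate 3 lay closest to each other. The difference was 3.21 ± 0.43 (SE), or 9.26-fold (limma adjusted p = 0.0149). The call was lost without YFP-positive replicate 1 (adjusted p = 0.0586), YFP-negative replicate 1 (0.0643) or YFP-negative replicate 2 (0.0648), with differences between 2.82 and 3.66 over the 6 fits that left out 1 array.

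Nr2f6, an orphan receptor known to dampen immune gene expression, measured 5.60, 5.28 and 5.97 against 4.84, 4.75 and 4.84 in YFP-negative replicates 1, 2 and 3. Its groups did not overlap, but its difference of 0.81 ± 0.19 did not pass the threshold (limma adjusted p = 0.0751). Nr2f1, a close paralog of Nr2f2, measured 4.45, 4.69 and 4.17 against 3.98, 3.69 and 3.52. Its difference of 0.71 ± 0.19 did not pass either (limma adjusted p = 0.111). The difference between the groups in Nr2f1 minus Nr2f2, taken within each array, was -2.51, with no overlap. Nr2c1, Nr2c2 (TR2 and TR4, repressors of globin genes) and Nr2e1, a neural receptor, had differences of 0.02, -0.34 and 0.07 (limma adjusted p = 0.982, 0.676 and 0.814). The 95% interval for Nr2c2 ran from -1.10 to 0.41.

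Because Nr2f2 is known as a venous regulator, it was read beside venous and arterial gene lists. Of 10 venous and lymphatic endothelial genes, 6 were higher and 0 lower, with a median difference of 3.20 against -0.01 for all genes. The 4 not called were the lymphatic genes Prox1, Lyve1 and Pdpn (0.09, -0.01 and 0.12) and Vwf (0.54). Prox1 lay below the array median on all 6 arrays. Of 12 arterial genes, 4 were higher and 0 lower, with a median of 0.73. Of the 8 not called, Dll4, Efnb2 and Notch1 were higher without overlap (1.38, 1.05 and 0.62). The others were Bmx, Gja5 and Unc5b (0.39, 0.08 and 0.07) and Gja4 and Hey2 (-0.09 and -0.15). The called shares were 60.0% and 33.3%, against 4.84% of all genes, and the unmoderated model called 3 of the venous and 0 of the arterial genes. At an unadjusted limma p under 0.05, 7 of the 10 and 7 of the 12 were higher and 0 lower. Groups did not overlap for 70.0% and 58.3%, against 22.7% of all genes. Flt4, a receptor of lymphatic growth factors, was higher by 5.35 ± 0.15, and Nrp2, a semaphorin co-receptor, by 3.37 ± 0.30 (limma adjusted p = 5.75e-05 and 0.00341). Some genes lay below the array median in YFP-negative cells, where a level cannot be told from background. Their folds are given with those arrays set to their median, a floor chosen after the values were seen. These folds carry no allowance for the spread among arrays, so they are not minima. Ackr1, a chemokine scavenger of venules, was below the median on all 3 YFP-negative arrays and was 27.6-fold higher against that floor (limma adjusted p = 0.000299). Aplnr, the apelin receptor, was below the median on 2 of the 3 and was 41.7-fold higher against the floor (limma adjusted p = 0.000618). On the arterial list Nrp1, another semaphorin co-receptor, was below the median on all 3 and was 15.8-fold higher against the floor (limma adjusted p = 0.00806). Notch4, Hey1 and Sox17 were higher by 0.85, 1.43 and 1.65. Nrp1 stayed called whichever array was omitted. Notch4 lost its call without YFP-positive replicates 1 or 2 or YFP-negative replicates 1 or 2 (highest adjusted p = 0.0763), Hey1 without YFP-positive replicate 1 or any YFP-negative array (0.0774), and Sox17 without any array but YFP-positive replicate 3 (0.153). Both lists are endothelial, and the endothelial markers in the same comparison had a median difference of 4.13.

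**Figure D2:**
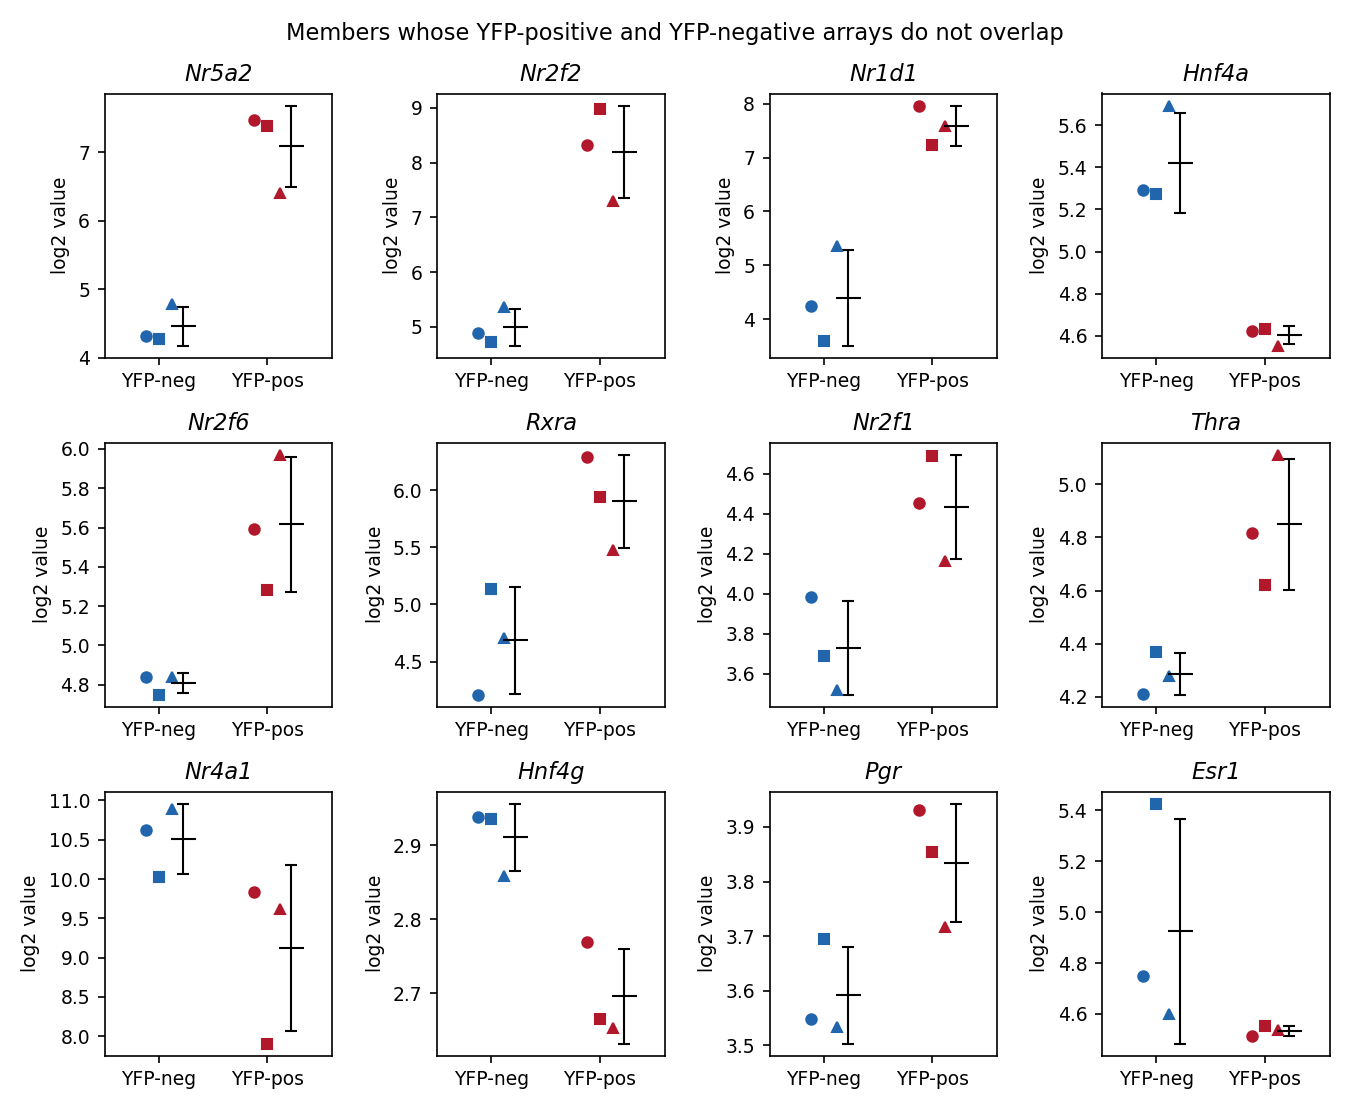
Log2 level (y axis, a separate scale for each gene that does not start at 0) in 3 YFP-negative (blue) and 3 YFP-positive (red) arrays for the 12 nuclear receptors whose groups do not overlap, with circles, squares and triangles for replicates 1, 2 and 3 and black bars for mean and SD. Nr5a2, Nr2f2 and Nr1d1 rise from group means below 5 to means above 7, while the other 9 genes differ by less than 1.4.

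Not overlapping was itself common in these data. The 12 receptors whose groups did not overlap are 27.9% of the family, against 22.7% of all genes. Of the 12, 8 were higher and 4 lower in YFP-positive cells, where 10.8% of all genes did not overlap and were higher and 11.9% did not overlap and were lower.

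Nr5a2, also called LRH-1, is an orphan receptor of liver, pancreas and gut that controls bile acid and steroid genes. Its levels were 7.47, 7.39 and 6.40 in YFP-positive replicates 1, 2 and 3 and 4.32, 4.26 and 4.78 in the YFP-negative ones. As for Nr2f2, the arrays of replicate 3 lay closest to each other, and all YFP-positive arrays were higher. The difference was 2.63 ± 0.32, or 6.20-fold (limma adjusted p = 0.0112), the smallest adjusted p of the family. The call was lost without YFP-negative replicate 1 (adjusted p = 0.0518) or replicate 2 (0.0528).

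YFP-positive replicate 3, the lowest of its group for Nr2f2 and Nr5a2, also had the lowest endothelial marker mean of its group, 8.89 against 9.45 and 9.60. Without it the differences were 3.66 for Nr2f2 and 2.98 for Nr5a2 (limma adjusted p = 0.00434 and 0.00253). Nr5a1, or SF-1, the steroidogenic paralog of Nr5a2, measured 3.57 ± 0.02 against 3.63 ± 0.09 (SD, n = 3 each; limma adjusted p = 0.854). Its levels lay near the array medians of 3.62 to 3.68, where a level cannot be told from background. The difference between the groups in Nr5a1 minus Nr5a2, taken within each array, was -2.69. Nr0b2 (SHP), a receptor without a DNA-binding domain that represses Nr5a2, measured 3.76, 3.73 and 3.81 against 3.57, 4.75 and 3.63, with YFP-negative replicate 2 above the rest (difference -0.21, limma adjusted p = 0.827). Nr0b1 (DAX1), a related corepressor, differed by -0.18 and the germ cell receptor Nr6a1 by 0.0043, and Nr6a1 lay below the median on all 6 arrays.

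The clock receptors were represented by Nr1d1 and Nr1d2 (REV-ERB alpha and beta), which repress Arntl and other clock genes, and by Rora and Rorb, which activate from the same DNA sites. Nr1d1 measured 7.97, 7.23 and 7.58 in YFP-positive replicates 1, 2 and 3 and 4.25, 3.59 and 5.36 in the YFP-negative ones. The YFP-negative arrays were spread widely, and YFP-negative replicate 2 lay below its array's median, so the size of the fold is uncertain (9.10-fold with that array set to its median). The difference was 3.20 ± 0.46, or 9.16-fold (limma adjusted p = 0.0184). The call was lost without YFP-positive replicate 1 (adjusted p = 0.0650) or YFP-negative replicate 1 (0.0764).

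Nr1d2 measured 6.64, 6.997 and 6.44 against 6.45, 6.78 and 6.70, so its groups overlapped. Its difference was 0.05 with a 95% interval of -0.39 to 0.49 (limma adjusted p = 0.941), and the upper end lies below the lower end for Nr1d1, 2.08. The difference between the groups in Nr1d1 minus Nr1d2 was 3.15. Rora differed by -0.06 (interval -0.50 to 0.37) and Rorb by 0.06, and Rorb lay below the median on all 6 arrays.

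Other clock genes were read beside these receptors. Of 15 measured genes on the clock list, 1 was higher and 1 lower (13.3%, against 4.84% of all genes), with a median difference of 0.23. Of the 15, 12 lay above the array median on all 6 arrays, where 7.95% of genes were called. The unmoderated model called 1 higher and 0 lower. Clock, the activator that pairs with Arntl, measured 7.47, 7.70 and 7.08 in YFP-positive and 5.05, 4.70 and 4.94 in YFP-negative replicates 1, 2 and 3. It was higher by 2.52 ± 0.19, or 5.74-fold (limma adjusted p = 0.00203), and stayed called whichever array was omitted. Arntl, which Nr1d1 is known to repress, measured 5.02, 4.77 and 4.37 against 3.92, 4.20 and 3.88, higher by 0.72 in arrays that did not overlap, without passing (limma adjusted p = 0.117). Hlf, a factor of the clock output family and of blood stem cells, was the gene that was lower (-1.80, limma adjusted p = 0.0108), a call lost without YFP-negative replicate 2 (0.0515). Dbp, Tef and Nfil3, which act at the same sites as Hlf, differed by 0.28, 0.25 and 0.60 and did not pass (limma adjusted p = 0.676, 0.463 and 0.615). Arntl, Dbp, Tef and Nfil3 were singled out after their values were seen. The time of day at which marrow was taken is not given in the labels.

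The thyroid hormone receptor gene Thra overlaps Nr1d1 in RefSeq's annotation of GRCm38.p6. It measured 4.81, 4.62 and 5.11 against 4.21, 4.37 and 4.28 in YFP-negative cells, with no overlap of the groups. The difference of 0.56 ± 0.15 did not pass (limma adjusted p = 0.115). Whether signal from the overlapping neighbour entered either probe was not tested. Thrb, the other thyroid hormone receptor, differed by -0.01 with an interval of -0.30 to 0.27 (limma adjusted p = 0.972). Vdr, the vitamin D receptor, measured 4.34, 4.20 and 4.02 against 4.26, 4.94 and 4.91. YFP-negative replicate 1 lay among the YFP-positive values, and the difference of -0.52 did not pass (limma adjusted p = 0.295). Of 12 measured genes that transport, activate or respond to thyroid hormone and vitamin D, limma called 0, with 3 below an unadjusted 0.05 and 0 called by the unmoderated model. The smallest p was that of Cyp2r1, a vitamin D hydroxylase (-0.67, limma adjusted p = 0.148).

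Among the retinoid receptors, Rxra had the largest difference. Rxra, the common partner of retinoic acid, thyroid hormone, vitamin D, oxysterol and fatty acid receptors, measured 6.29, 5.94 and 5.48 in YFP-positive and 4.21, 5.14 and 4.70 in YFP-negative replicates 1, 2 and 3. The groups did not overlap, but YFP-positive replicate 3 and YFP-negative replicate 2 came close. The difference of 1.22 ± 0.30, or 2.33-fold, did not pass (limma adjusted p = 0.0917, unadjusted p = 0.0066). Rxrb and Rxrg differed by 0.03 and 0.19 (limma adjusted p = 0.963 and 0.613). The retinoic acid receptors Rara, Rarb and Rarg differed by 0.22, 0.09 and 0.06, with 95% intervals that reached from -0.27 at the lowest to 0.56 at the highest. Rara measured 6.25, 6.47 and 6.54 against 6.22, 6.02 and 6.37, so its groups overlapped (limma adjusted p = 0.541).

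Genes that make, carry, degrade or answer to retinoic acid were read beside these receptors. Of 18 measured, 2 were higher and 1 lower (16.7%, against 4.84% of all genes), with a median difference of 0.03. The unmoderated model called 0 of them. Dhrs3, a retinal reductase that retinoic acid induces, was higher by 1.77 ± 0.25 (limma adjusted p = 0.0181). Tgm2, a transglutaminase that retinoic acid induces and that endothelium also makes, was higher by 2.78 ± 0.48 (limma adjusted p = 0.0307). Fabp5, which carries fatty acids and retinoic acid to Ppard, was lower by -1.07 ± 0.16 (limma adjusted p = 0.0209). Dhrs3 lost its call without YFP-positive replicates 1 or 2 or YFP-negative replicates 1 or 3 (highest adjusted p = 0.0747), Tgm2 without YFP-positive replicates 1 or 2 or YFP-negative replicates 1 or 2 (0.109), and Fabp5 without YFP-positive replicate 2 or any YFP-negative array (0.0850).

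Of the 8 measured sensors of lipids, bile acids and foreign compounds, Hnf4a was the member that passed. Hnf4a, a receptor that binds fatty acids and directs liver and gut genes, measured 4.63, 4.63 and 4.55 in YFP-positive and 5.29, 5.27 and 5.69 in YFP-negative replicates 1, 2 and 3. The YFP-positive arrays were close together and all lower. The difference was -0.82 ± 0.14, or 1.76-fold lower (limma adjusted p = 0.0347). This was the least stable of the 4 calls, since omitting any of the 6 arrays ended it, with adjusted p = 0.0558 to 0.0991. Hnf4g, its gut paralog, measured 2.77, 2.66 and 2.65 against 2.94, 2.94 and 2.86, below the array median on all arrays (limma adjusted p = 0.347).

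The fatty acid receptors Ppara and Ppard differed by -0.19 and 0.17 (limma adjusted p = 0.513 and 0.792). Ppard measured 5.001, 4.60 and 5.20 against 4.62, 4.55 and 5.12, so its groups overlapped. Nr1h3, or LXR alpha, the oxysterol receptor, measured 3.87, 3.56 and 3.38 against 3.40, 3.37 and 3.07, near or below the array medians (0.33, limma adjusted p = 0.42). The bile acid receptor Nr1h4 (FXR) and the xenobiotic receptors Nr1i2 (PXR) and Nr1i3 (CAR) differed by -0.20, 0.12 and 0.11. Nr1h4 and Nr1i2 lay below the median on all 6 arrays, as did Ppara.

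Known targets of these lipid sensors were read as lists. Of 13 measured LXR targets, 2 were higher and 1 lower (23.1%, against 4.84% of all genes), with a median difference of 0.24. The unmoderated model called 0 of them. Of the 13, 9 lay above the array median on all 6 arrays, where limma called 7.95% of genes. Abca1, a cholesterol exporter, was higher by 2.03 ± 0.33, and Apoe, a lipoprotein component, by 1.27 ± 0.17 (limma adjusted p = 0.0253 and 0.0155). Fasn, the fatty acid synthase, was lower by -1.56 ± 0.31 (limma adjusted p = 0.0493). Apoe lost its call without YFP-positive replicate 1 or YFP-negative replicates 1 or 2 (highest adjusted p = 0.0643), Abca1 without any array but YFP-positive replicate 3 (0.0993), and Fasn without any array but YFP-negative replicate 3 (0.149).

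Of 20 measured PPAR targets, 5 were higher and 1 lower (30.0%, against 4.84% of all genes), with a median difference of 0.08. The unmoderated model called 2 higher and 0 lower. The gene called lower by limma was Acadm (-0.95, limma adjusted p = 0.0156). The 4 with the smallest p were Cd36 and Lpl, which take up and release fatty acids, Fabp4, a fatty acid carrier of fat cells and capillaries, and Plin2, a lipid droplet coat protein. On the probes used, Cd36 and Lpl lay below the array median on all 3 YFP-negative arrays. With those arrays set to their median, Cd36 and Lpl were 61.7-fold and 14.6-fold higher on those probes (limma adjusted p = 4.31e-05 and 0.00275). These folds are not minima either. Lpl had more than 1 probe, and the mean of its probes gave a smaller difference, 3.58 against 4.28 (limma adjusted p = 0.0127). Fabp4 and Plin2 were higher by 5.11 and 1.78 (limma adjusted p = 0.00248 and 0.00194). All 4 stayed called whichever array was omitted. Plin2 measured 7.30, 7.16 and 7.29 against 5.39, 5.32 and 5.68. Several of these genes are also made by capillary endothelium, whose markers rose in the same comparison.

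**Figure D3:**
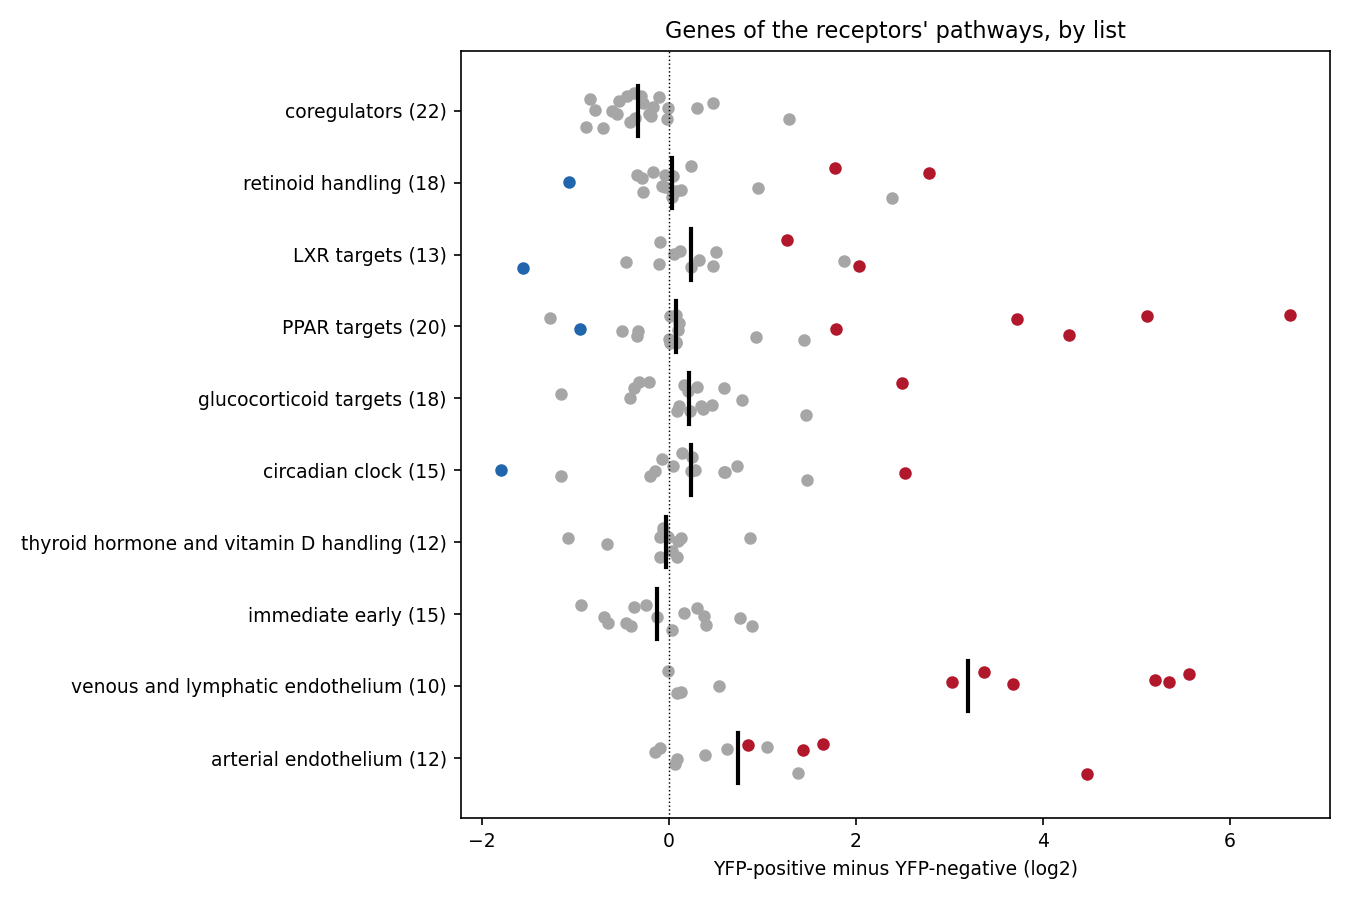
Difference between YFP-positive and YFP-negative cells on the log2 scale (x axis) for the genes of 10 lists (y axis, number measured in brackets; vertical scatter is for legibility). Points are genes, red if called higher and blue if called lower, and black bars are list medians. The venous and lymphatic list has a median of 3.20, while the PPAR list has 5 genes called higher and a median of 0.08; points are measured differences, also where the YFP-negative level is near background.

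Over the 10 lists, 21 genes were higher and 4 lower. Without YFP-positive replicate 1 or YFP-negative replicate 1 the higher count was 13 each time. The lower count was 2 without YFP-positive replicate 1, 1 without YFP-positive replicate 2 or YFP-negative replicate 1, 0 without YFP-negative replicate 2 and 2 without YFP-negative replicate 3.

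Of the 5 steroid receptors, limma called 0, with 0 below an unadjusted 0.05 and 0 called by the unmoderated model. Nr3c1, the glucocorticoid receptor, measured 7.73, 7.36 and 7.58 in YFP-positive and 7.17, 7.69 and 7.48 in YFP-negative replicates 1, 2 and 3. The groups overlapped, and the difference was 0.11 with a 95% interval of -0.32 to 0.53 (limma adjusted p = 0.837). Nr3c2, the mineralocorticoid receptor, differed by 0.20 (interval -0.20 to 0.59). It had a dimmer probe as well, whose difference was 0.14.

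Esr1, estrogen receptor alpha, measured 4.51, 4.55 and 4.54 in YFP-positive and 4.75, 5.43 and 4.60 in YFP-negative replicates 1, 2 and 3. The YFP-positive arrays were the lower ones, but only YFP-negative replicate 2 stood well above them (-0.39, limma adjusted p = 0.474). The Cre transgene holds an estrogen receptor part, and whether its RNA reaches the Esr1 probe was not tested. Esr2, estrogen receptor beta, differed by -0.18, again with YFP-negative replicate 2 highest at 4.32. Pgr, the progesterone receptor, measured 3.93, 3.85 and 3.72 against 3.55, 3.69 and 3.53, near the array medians (0.24, limma adjusted p = 0.354).

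Of 18 glucocorticoid-induced genes, 1 was higher and 0 lower, with a median difference of 0.22. That share of 5.56% is near the 4.84% of all genes and is no result about the list, and the unmoderated model called 0. Sgk1, a kinase of sodium transport, was higher by 2.49 ± 0.42 (limma adjusted p = 0.0296), a call lost without any array but YFP-negative replicate 3 (highest adjusted p = 0.108). The estrogen-related receptors Esrra, Esrrb and Esrrg, orphan activators of mitochondrial genes or of stem cell genes, differed by -0.08, 0.05 and 0.06. Their 95% intervals all lay between -0.46 and 0.52, and Esrrb lay below the median on all 6 arrays.

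The Nr4a receptors are orphan receptors that many stimuli induce within minutes, and all 3 measured lower in YFP-positive cells without passing the threshold. Nr4a1 (Nur77) measured 9.83, 7.90 and 9.62 in YFP-positive and 10.62, 10.02 and 10.90 in YFP-negative replicates 1, 2 and 3. Its groups did not overlap, and YFP-positive replicate 2 was far below the rest. The difference was -1.40 ± 0.54 (limma adjusted p = 0.264, unadjusted p = 0.0418), and -0.79 without YFP-positive replicate 2. Nr4a3 (NOR1) measured 6.59, 4.80 and 6.49 against 7.64, 6.13 and 7.09, and YFP-positive replicate 2 was again lowest (-0.99, limma adjusted p = 0.497). Nr4a2 (Nurr1) measured 8.11, 7.06 and 7.29 against 7.85, 7.33 and 8.96, so its groups overlapped widely (-0.56, limma adjusted p = 0.654). With the replicate number as a block, limma adjusted p was 0.105, 0.613 and 0.0861 for Nr4a1, Nr4a2 and Nr4a3. None passed there either, and no label pairs the samples by number.

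The array with the lowest Nr4a levels also had low levels of other immediate early genes. The medians of 15 such genes, taken against the YFP-negative means, were 0.33, -0.51 and 0.01 in YFP-positive and 0.30, -0.34 and 0.03 in YFP-negative replicates 1, 2 and 3. Replicate 2 was thus the lowest in both groups. Of the 15, limma called 0, with 2 below an unadjusted 0.05 and 0 called by the unmoderated model, and their median difference was -0.13. Junb, a subunit of AP-1, had the smallest p and was measured higher, by 0.89 (limma adjusted p = 0.165). The marrow was digested with collagenase before the sort, and the part of handling in these levels was not tested.

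**Figure D4:**
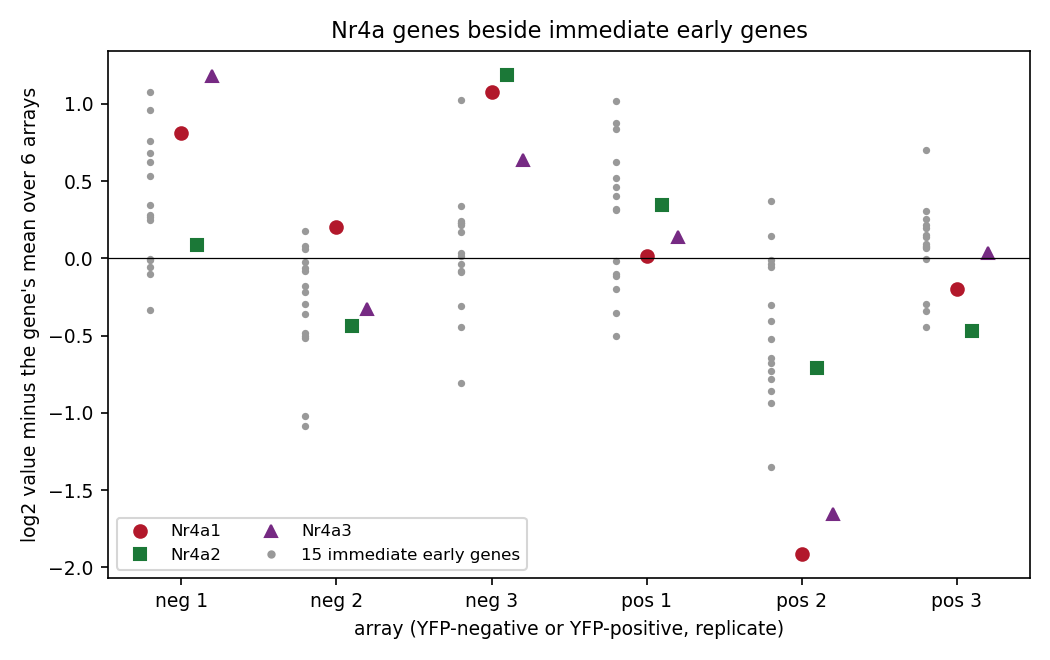
Log2 level minus the gene's own mean over 6 arrays (y axis) in each array (x axis, 3 YFP-negative and 3 YFP-positive) for Nr4a1 (red circles), Nr4a2 (green squares), Nr4a3 (purple triangles) and 15 immediate early genes (grey points). YFP-positive replicate 2 holds the lowest values of all 3 Nr4a genes, and 13 of 15 grey points there lie below 0.

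Receptors act through shared coregulators, and their genes were read as a list of 24, of which 22 were measured. Of these, limma called 0, with 7 below an unadjusted 0.05 and 0 called by the unmoderated model. The 7 are 31.8%, against 17.2% of all genes and 27.2% of the genes above the array median on all 6 arrays, where 21 of the 22 lay. The difference was below 0 for 19 of the 22, with a median of -0.33 against -0.01 for all genes. The medians by array were -0.15, -0.39 and -0.23 in YFP-positive and 0.02, 0.04 and -0.02 in YFP-negative replicates 1, 2 and 3. Nrip1 (RIP140), a ligand-dependent corepressor, had the smallest p. It measured 6.51, 7.08 and 6.86 against 7.94, 7.46 and 7.56, with no overlap and a difference of -0.84 ± 0.20 (limma adjusted p = 0.0813).

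Paralogs were compared within arrays over all 27 pairs in 17 subfamilies. In 8 pairs the gap between the paralogs did not overlap between the groups, and these all involved Nr1d1, Nr2f2, Nr5a2, Hnf4a, Rxra or Thra. Each of the 8 had an exact two-sided permutation p = 0.1, the smallest that 20 splits of 6 arrays allow, and 0.338 after Benjamini-Hochberg adjustment over the 27 pairs. The design therefore cannot show by this test that any paralog changed more than its partner. The receptors with differences near 0 are bounded only by their intervals.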

How the data were processed

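Expression in 6 samples was measured on arrays. The deposited table holds log2 values of 41345 probes, per the values themselves, which run from 1.53 to 13.7 with array medians of 3.62 to 3.68. Per the labels' protocols, each sample gave 500 pg of total RNA for a Nugen Ovation Pico V2 amplification. The submitters' processing notes name Partek. For background correction, summarisation, normalization and build, the entry is: not given in the sources used here. No detection calls were used, and the number of arrays limits the precision.

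Of 25335 annotated probes, 23521 had 1 symbol and 1814 several, and the other probes of the table were not named here. This gave 22180 genes, and the gene identifiers of all 43 measured receptors were in RefSeq's GRCm38.p6 table. The 2 groups were compared by limma 3.58.1 under R 4.3.3, with lmFit and eBayes and no covariate. Two-sided p-values were adjusted by Benjamini-Hochberg across the 22180 genes, and the threshold was 0.05. The fit was tested on simulated data. All 43 receptors are described, those past an unadjusted p of 0.05 by array, and from each list the up to 4 called genes of smallest p, or the 1 of smallest p. Other list genes named in the text were singled out after their values were seen. The receptors and lists were chosen with earlier results of these data known. Alternatives were the mean of a gene's probes, quantile normalization, median centring, a filter on level, the replicate number as a block, trend and robust eBayes, an unmoderated model, array weights, adjustment over all probes and leaving out each array.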

Additional observations from a re-analysis of the deposited data

How the results depend on the processing

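The 4 called receptors were also the 4 called with the mean of a gene's probes, quantile normalization, median centring, the filter on level and array weights. Hnf4a was lost with trend and robust eBayes and with adjustment over all probes, which left 0 receptors lower each time. The unmoderated model called 0 receptors in either direction, 145 genes higher and 35 lower, and 6 higher and 0 lower on the pathway lists. Adjustment over all probes called 424 genes higher and 200 lower. Over the 6 fits that left out 1 array, 0 to 3 receptors were higher and 0 lower, 319 to 668 genes were higher and 111 to 517 lower, and 13 to 25 pathway genes were higher and 0 to 6 lower. Without YFP-negative replicate 1 no receptor passed (0 of 43). With the replicate number as a block, 1 receptor was higher (Nr1d1) and 0 lower, 412 genes were higher and 168 lower, and 2 pathway genes were lower. The labels do not say that a number marks a shared mouse or day. Deviations of same-numbered arrays correlated at 0.10, 0.08 and 0.17 for replicates 1, 2 and 3, and each array correlated best with its own number in the other group, a hint from the data and not from the design. Of 631 values of receptors under the alternatives, 582 kept direction and side of the threshold, 22 lost the call and 27 turned sign, in 13 receptors whose differences were at most 0.21 in size. Nr2c1 became -0.019 with quantile normalization and -0.0045 with median centring, and Nr6a1 -0.016 with median centring and -0.0018 with array weights. Over the fits that left out 1 array, Rarb ranged from -0.017 to 0.21, Rarg from -0.047 to 0.14, Rxrb from -0.16 to 0.18, Nr3c1 from -0.028 to 0.23, Thrb from -0.10 to 0.031, Esrra from -0.21 to 0.0090, Esrrb from -0.043 to 0.22, Esrrg from -0.038 to 0.12, Nr1d2 from -0.11 to 0.17, Rora from -0.20 to 0.11, Nr2c1 from -0.15 to 0.16, Nr6a1 from -0.018 to 0.049 and Nr0b2 from -0.42 to 0.17. The causes were not tested. Levels near the array medians cannot be told from background, which limits what 9 receptors below the median on all 6 arrays can show.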
